A study of Mus musculus with 8 samples.

Results

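Gene expression in the left ventricle was compared between mice at day 12 of pregnancy, near its middle, and non-pregnant mice in diestrus, the quiet phase of the estrous cycle. These are 4 of the 8 arrays of the series, 2 for each state, and they were taken by their stage labels. All animals were C57BL/6 females of 3 to 4 months, bought from 1 supplier, that differed by reproductive state and by no genotype or drug. After isoflurane and cervical dislocation the ventricle was cut into 3 pieces, and RNA of 1 piece went onto each one-colour array. Diestrus and day 12 were each represented by replicates 2 and 3, and the labels do not say which animal a sample came from, so p-values describe only how far these samples scatter, which may be technical. The other 4 arrays, from day 19 of pregnancy (18/19 days in the protocol) and from day 1.5 after birth, are used here only to place genes and lists. Values are log2 RMA intensities (RMA is the background correction, scaling and summary of Affymetrix arrays), so a difference of 1 is a 2-fold difference, and differences are day 12 minus diestrus throughout.

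The heart of a pregnant animal pumps a larger blood volume and grows, and the growth goes back after birth. Heart muscle takes most of its energy from fatty acids, and nuclear receptors of the PPAR family switch on genes of fatty acid use when the supply of circulating fat is high, as it is in fasting. The muscle cells lie in a meshwork of collagens, proteoglycans and elastic fibres that is laid down mainly by fibroblasts, while interferons, released during infection, switch on a set of antiviral genes in most cell types.

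The labelled tissue carried its defining genes. Of the 12 cardiomyocyte markers, the cardiac troponin genes Tnnt2 and Tnni3 lay between 12.67 and 12.96 on the 4 arrays and the alpha myosin heavy chain gene Myh6 between 12.40 and 12.56. The spread within each pair was as wide as the distance between the states. Over the 13096 genes tested, the array-to-array differences had an SD of 0.256 in diestrus and 0.233 at day 12, against 0.225 to 0.288 for the 4 pairings of a day 12 with a diestrus array. Both pairs were closer than those of day 19 (0.529) and post-partum (0.329).

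Several sets of genes set the 2 arrays of a state apart. Clock genes, which cycle through the day, differed within the diestrus pair: 14 of 16 differed by more than 0.5 between diestrus replicates 2 and 3, against 4.73% of all genes tested, and 0 of 16 did so between the day 12 arrays, against 3.01%. Arntl, a core activator of the clock, stood at 8.39 and 5.82 in diestrus against 7.38 and 7.09 at day 12. Dbp, one of its targets, stood at 7.82 and 9.71 in diestrus against 9.10 and 9.28 at day 12. The day 12 values of both genes thus lay between those of the diestrus arrays, and 1 of the 16 genes, Nr1d1 (9.06 and 9.63 against 9.87 and 9.65), did not overlap between the states. Part of the atrial list was high on replicate 3 of both states: Myl7, Sln, Myl4 and Dkk3 were higher there by more than 0.5, 4 of 11 genes in each state. Myl7, the atrial myosin light chain, stood at 5.12 and 8.24 in diestrus against 4.69 and 10.04 at day 12, and Sln, the atrial calcium pump inhibitor, at 4.51 and 6.21 and at 4.28 and 7.89. Nppa, also on the list, lay the other way, with differences of replicate 3 from replicate 2 of -0.89 in diestrus and -0.10 at day 12. For the main lists below, medians are also given within replicates 2 and within replicates 3. They use the same 4 arrays and are not separate evidence. What the clock and atrial differences contribute to other results was not tested.

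**Figure D1:**
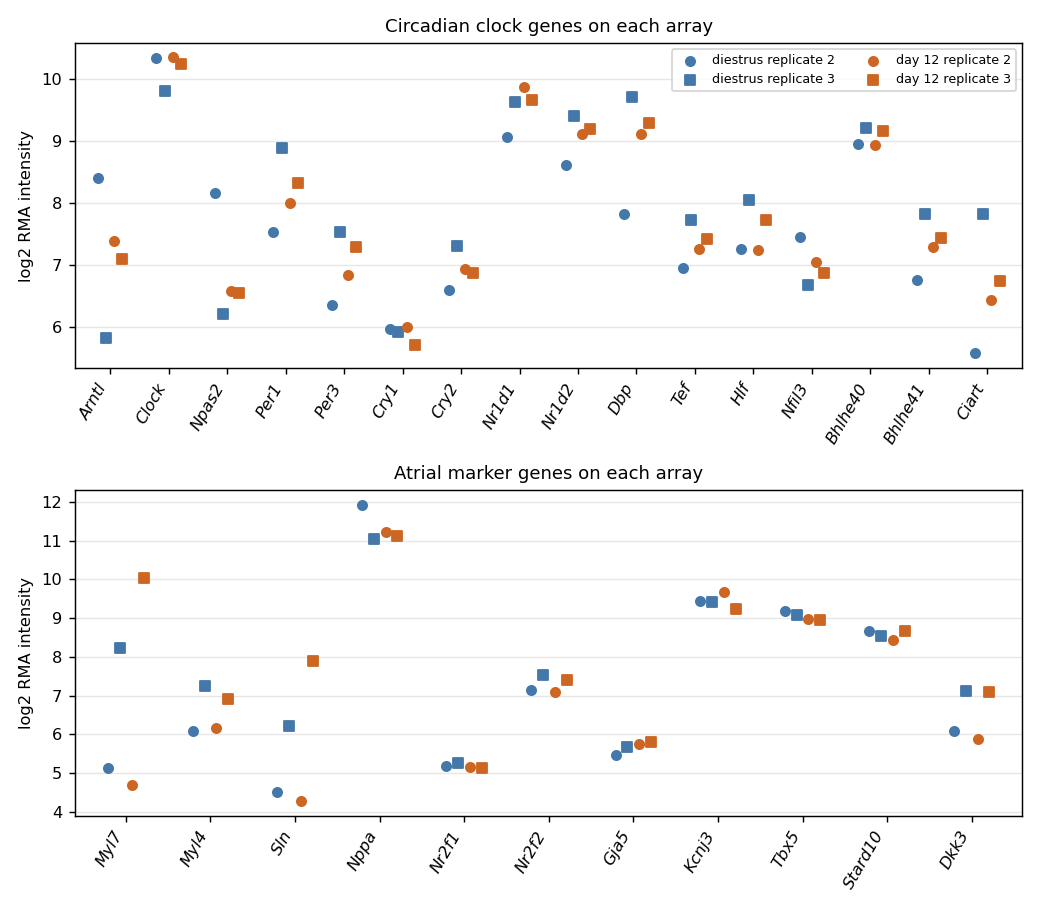
Log2 RMA intensity (y axis) of 16 circadian clock genes and 11 atrial marker genes (x axis), 1 point per array; blue is diestrus, orange day 12, circles replicate 2 and squares replicate 3. The diestrus arrays lie far apart for Arntl (8.39 and 5.82) and Dbp (7.82 and 9.71), and replicate 3 of both states is high for Myl7 (8.24 and 10.04).

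In limma, fitted to the 4 arrays, 0 of 13096 genes passed an adjusted p of 0.05 (0% called, smallest adjusted p 0.257, Benjamini-Hochberg), and 889 had an unadjusted p under 0.05, where 655 are expected by chance. With all 8 arrays in the fit that number was 296, below the 655. The count passing was 9 with a trended and robust variance and 18 without diestrus replicate 2. With 2 samples against 2, the smallest p an exact two-sided test could give is 0.333. A second reading is whether the states overlapped: both day 12 arrays lay above both diestrus arrays for 2836 genes (21.7%) and below both for 2054 (15.7%). These shares are the background for every list below. Together they make 37.3%, while a random order of the 4 arrays would separate a share of 0.333. Vegfa, which was 0.0064 beyond the nearest diestrus array, is an example just inside this rule, and Col3a1, whose nearest arrays overlapped by a gap of -0.0041, one just outside. The median difference of all genes tested was 0.017, and 55.1% of them were higher at day 12. Differences were small: 101 genes were higher and 126 lower by more than 0.5. The typical standard error of a gene's difference was 0.114.

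**Figure D2:**
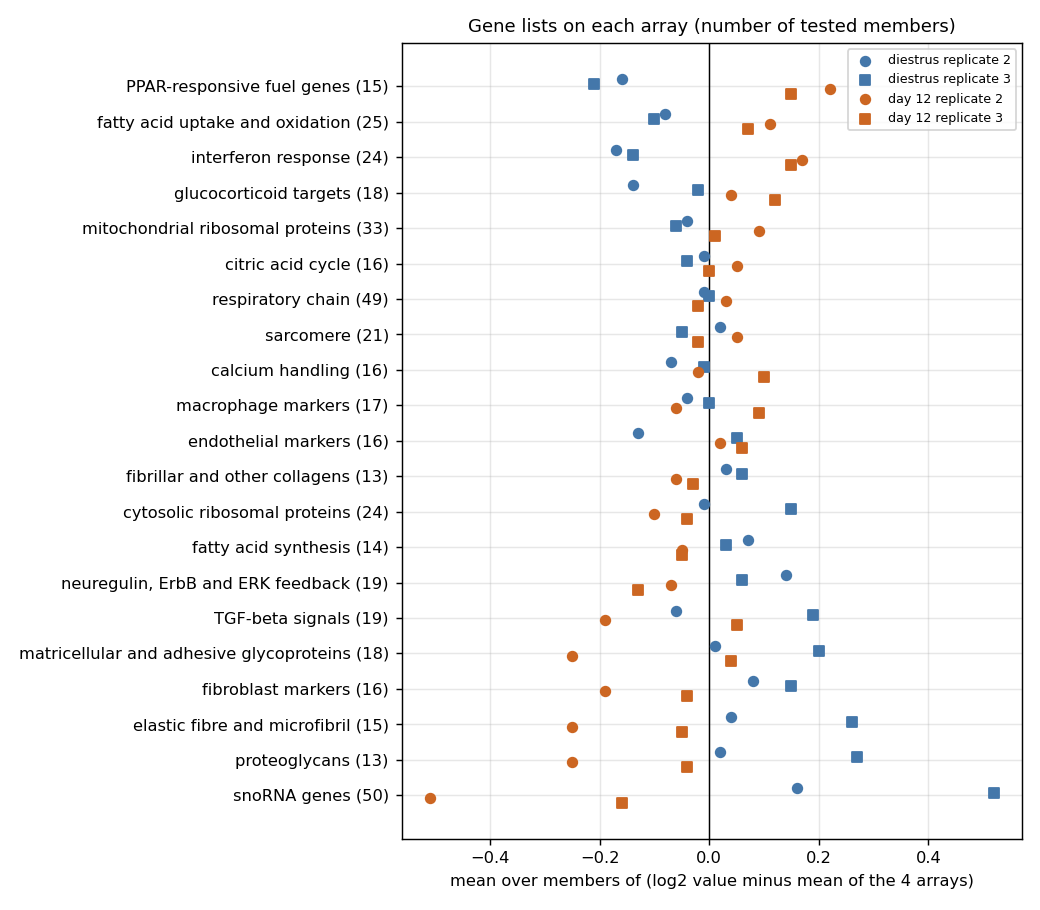
Mean over the tested members of 21 gene lists (y axis, number of members in brackets) of the log2 value minus the gene's mean over the 4 arrays (x axis); blue is diestrus, orange day 12, circles replicate 2 and squares replicate 3. Both day 12 arrays lie to the right of both diestrus arrays for PPAR-responsive and interferon genes (0.22 and 0.15 against -0.16 and -0.21, and 0.17 and 0.15 against -0.17 and -0.14), and to the left for proteoglycans and snoRNA genes.

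Genes that PPAR receptors switch on were higher at day 12. All 15 tested members had a positive difference, with a median of 0.30, and 12 of 15 (80.0%, against 21.7% of all genes) lay above both diestrus arrays. The median was 0.25 within replicates 2 and 0.31 within replicates 3, with 15 of 15 positive in each. Pdk4, the kinase that closes the entry of pyruvate into the citric acid cycle, stood at 10.65 and 10.44 in diestrus against 11.51 and 11.38 at day 12. Both day 12 values were clear of both diestrus values, by 0.73 at the nearest, and the difference was 0.90 ± 0.12 (SE, n = 2 per group), or 1.87-fold. Angptl4, a secreted inhibitor of lipoprotein lipase and a standard PPAR target, went from 5.23 and 5.21 to 6.30 and 5.87, a difference of 0.86 ± 0.16. Plin5, which coats lipid droplets beside mitochondria, stood at 8.15 and 8.12 against 8.88 and 8.56 (0.58 ± 0.13). Ucp3, a mitochondrial carrier induced by fatty acids, stood at 6.93 and 7.39 against 7.85 and 7.65 (0.59 ± 0.17). The diestrus values of Ucp3 were further apart than the nearest arrays of the states. Its difference ranged from 0.26 to 0.92 without 1 array or without the same replicate of both states. None of these passed over all genes in limma (adjusted p from 0.257 for Pdk4).

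The other PPAR-responsive genes differed less. The acyl-CoA thioesterases Acot1 and Acot2 gave 0.45 and 0.31, the peroxisomal enzyme Ehhadh 0.34 and the lipid droplet gene Plin2 0.19. The fatty acid binding protein gene Fabp3 gave 0.30, and its other probe set 0.28. Cpt1a (9.32 and 9.20 against 9.33 and 9.27), Vldlr and Tfam overlapped between the states. Their differences were 0.043, 0.22 and 0.15.

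The pathway that burns fatty acids in mitochondria was shifted in the same direction by a smaller amount. Of its 25 tested genes, 25 had a positive difference, 20 lay above both diestrus arrays (80.0%) and 0 lay below, with a median of 0.19 that was 0.18 within replicates 2, 0.11 within replicates 3 and 0.12 without day 12 replicate 2. The list shares Cd36, Fabp3, Cpt1a and Slc25a20 with the PPAR-responsive list, so their counts are not separate evidence. The uptake gene Cd36, already among the strongest signals on the arrays, stood at 12.30 and 12.37 against 12.49 and 12.46 (0.14 ± 0.10), and the transporter Slc27a1 at 9.29 and 9.31 against 9.48 and 9.65. Slc25a20, which carries acylcarnitines into mitochondria, stood at 9.77 and 9.73 against 10.04 and 9.99 (0.27 ± 0.10). Among the enzymes of the oxidation cycle, Acadvl gave 0.31, Hadha 0.20, Acaa2 0.21 and the isomerase Eci2 0.39 ± 0.10 (8.55 and 8.47 against 8.90 and 8.91). Acadvl, Hadha, Acaa2 and Eci2 were higher on both day 12 arrays. Cpt1a, the short-chain dehydrogenase gene Acads (0.034) and Echs1 (0.058) overlapped between the states. Of the lipases, the hormone-sensitive lipase Lipe stood at 6.67 and 6.64 against 7.10 and 7.10, a difference of 0.45 ± 0.10. The adipose lipase Pnpla2 (10.31 and 10.25 against 10.29 and 10.33) and the lipoprotein lipase Lpl (12.64 and 12.64 against 12.73 and 12.59) overlapped. The other probe set of Lpl gave -0.35.

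Lipe is also a fat cell marker. Of 8 tested adipocyte markers, 4 lay above both diestrus arrays (Lipe, Cidea, Pparg and Fabp4) and 0 below. The summed linear intensity of the 11 measured markers was 4335 and 5102 in diestrus and 5436 and 5368 at day 12. The defining genes were near the floor of the arrays and did not pass the filter: Adipoq stood at 5.16 and 5.10 against 4.89 and 5.28, and Lep at 4.64 and 4.75 against 4.79 and 4.78. Pparg, the PPAR of fat cells and vessels, stood at 8.28 and 8.30 against 8.58 and 8.53.

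Genes that make fatty acids went the other way. Of 14 tested, 7 lay below both diestrus arrays (against 15.7% of all genes) and 1 above, with a median of -0.11, or -0.16 within replicates 2 and -0.14 within replicates 3. The desaturase gene Fads2, which acts on polyunsaturated fatty acids, stood at 8.69 and 8.72 in diestrus against 8.15 and 8.08 at day 12, which differ by -0.59 ± 0.10. Its partner Fads1 stood at 8.78 and 8.72 against 8.46 and 8.47 (-0.29 ± 0.10). Scd1, which puts the first double bond into saturated fatty acids, stood at 8.50 and 8.25 against 7.60 and 8.02 (-0.56 ± 0.17). The carboxylase Acaca gave -0.36, the elongase Elovl6 -0.27, the synthase Fasn -0.20 and their regulator Srebf1 -0.15. The member that went against the rest was Scd4, the cardiac desaturase, at 6.78 and 6.55 against 7.26 and 7.39 (0.66 ± 0.12). The desaturases Scd1 and Scd4 are near-identical in parts of their sequence, and how the probe sets keep them apart was not analysed here.

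**Figure D3:**
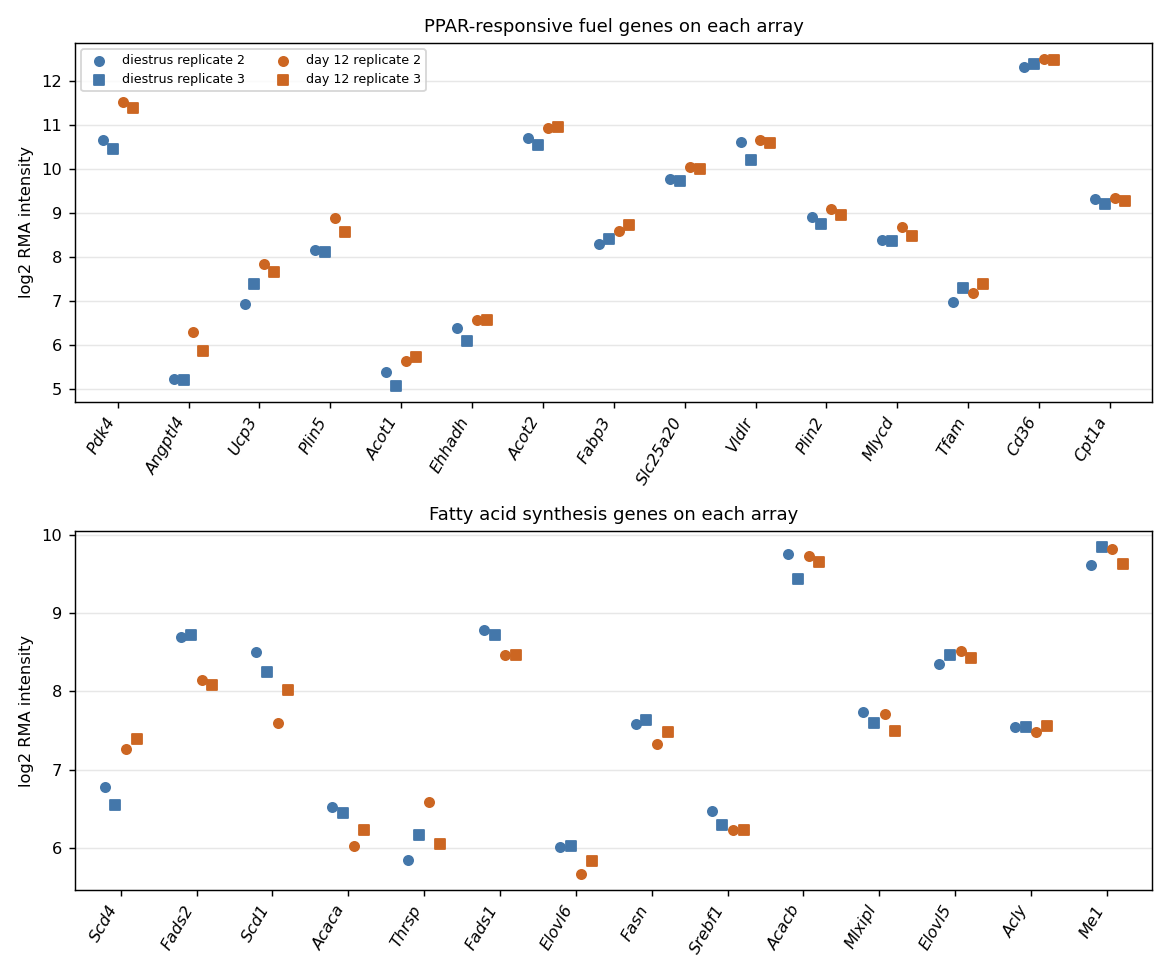
Log2 RMA intensity (y axis) of 15 PPAR-responsive fuel genes and 14 fatty acid synthesis genes (x axis, ordered by size of difference), 1 point per array; blue is diestrus, orange day 12, circles replicate 2 and squares replicate 3. Pdk4 and Angptl4 are higher on both day 12 arrays, Scd4 is higher too, and Fads2 and Scd1 are lower.

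Other fuel pathways had smaller medians. Respiratory chain genes had a median of 0.023, with 13 of 49 above and 9 below both diestrus arrays. Citric acid cycle genes had a median of 0.029, with 6 of 16 above (37.5%) and 0 below, the complex II subunit Sdha standing at 12.04 and 12.00 against 12.11 and 12.17. Breakdown of branched-chain amino acids had 7 of 20 above (35.0%) and 1 below with a median of 0.051, among them Acad8 (0.30 ± 0.10) and Hibch (0.35 ± 0.12). For glucose use the split was 9 above and 4 below of 28, with a median of 0.048. The platelet-type phosphofructokinase gene Pfkp stood at 8.38 and 8.13 against 8.78 and 8.64 (0.45 ± 0.13), the glycolytic enzyme Pgam1 at 8.42 and 8.39 against 8.27 and 8.29, and Pdk1, a relative of Pdk4, at 8.64 and 8.72 against 8.90 and 9.01. The other probe sets of Pdk1 (-0.45) and Pgam1 (0.32) lay the other way, so neither has a settled direction. Ketone use had 2 of 8 above, Oxct1 and the lactate exporter Slc16a3 (both 0.14), and 2 below, Bsg and Aacs. Cholesterol genes had 4 of 16 above and 1 below, with a median of -0.0034, led by Stard4 (0.31 ± 0.13).

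Interferon-stimulated genes were higher at day 12. All 24 tested members had a positive difference, 18 lay above both diestrus arrays (against 21.7% of all genes) and 0 below, with a median of 0.29, which was 0.29 within replicates 2 and 0.26 within replicates 3. Rsad2, the antiviral enzyme viperin, stood at 7.94 and 7.79 in diestrus against 8.72 and 8.79 at day 12, which differ by 0.89 ± 0.11 or 1.85-fold. Irf7, the transcription factor that amplifies the response, stood at 6.89 and 6.77 against 7.48 and 7.53 (0.68 ± 0.10). Bst2, which tethers budding viruses, stood at 5.75 and 5.83 against 6.42 and 6.41 (0.62 ± 0.10). For these 3 genes the arrays of a state differed far less than the states did. Stat2, which carries the type I signal to the nucleus, stood at 7.01 and 6.74 against 7.40 and 7.40 (0.52 ± 0.12), and its partner Irf9 gave 0.30. The interferon-induced proteasome subunits Psmb8 and Psmb9 gave 0.24 and 0.37 and the peptide transporter Tap1 0.35. Outside the list, the ubiquitin-like conjugating enzyme Ube2l6 (7.77 and 7.85 against 8.43 and 8.69, 0.75 ± 0.12) and the guanylate-binding protein Gbp3 (0.82 ± 0.16), both known interferon targets, were among the 20 genes of widest separation.

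The interferon list was not uniform. Ifit1 (0.16), Ifit2 (6.04 and 6.39 against 6.56 and 6.10) and Ifit3 (6.22 and 6.18 against 6.35 and 6.09), which are usually strong responders, overlapped, as did Oas2, Ifih1 and Zbp1. Isg15, Mx1 and Mx2 did not pass the filter on dim probe sets: Isg15 stood at 4.19 and 4.41 against 4.96 and 4.49, Mx2 at 4.32 and 4.58 against 4.85 and 4.82, and Mx1 at 3.70 and 3.39 against 3.09 and 3.28, so that Mx1 lay the other way. The chemokines Cxcl9 and Cxcl10, targets of interferon gamma, gave 0.19 and 0.17. Class II presentation had a median of 0.034 (-0.19 within replicates 2 and 0.26 within replicates 3), with 1 of 6 above (Ciita, 0.19) and 1 below (H2-DMa, -0.12). Macrophage markers, whose cells respond to interferons, had a median of -0.00061 and a summed intensity of 6060 and 6692 against 5932 and 6823, and lymphocyte markers one of 638 and 633 against 561 and 611.

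The promoters of the 4 interferon genes of widest separation are shown because these genes were higher together. Each run covers 250 bases before to 50 after the gene's start in RefSeq (GRCm38.p6), 5′ to 3′ on the gene's strand, and capitals mark matches on either strand to GAAANNGAAA, the core shared by interferon-stimulated response elements. The windows are chr12:26456403-26456702 on the minus strand for Rsad2, chr7:141266375-141266674 on the minus strand for Irf7, chr8:71537423-71537722 on the minus strand for Bst2 and chr10:128270248-128270547 on the plus strand for Stat2.
Rsad2: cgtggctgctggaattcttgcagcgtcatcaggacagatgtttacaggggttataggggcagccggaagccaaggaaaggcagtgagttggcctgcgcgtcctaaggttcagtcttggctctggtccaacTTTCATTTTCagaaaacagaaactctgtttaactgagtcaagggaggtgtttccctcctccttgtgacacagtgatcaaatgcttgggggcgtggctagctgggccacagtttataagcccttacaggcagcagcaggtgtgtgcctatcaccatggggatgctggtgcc
Irf7: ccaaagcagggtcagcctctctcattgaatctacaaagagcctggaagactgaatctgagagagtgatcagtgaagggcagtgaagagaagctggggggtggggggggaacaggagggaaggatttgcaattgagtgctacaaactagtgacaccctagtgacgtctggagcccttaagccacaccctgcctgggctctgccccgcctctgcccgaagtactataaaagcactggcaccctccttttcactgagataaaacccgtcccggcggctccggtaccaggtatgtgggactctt
Bst2: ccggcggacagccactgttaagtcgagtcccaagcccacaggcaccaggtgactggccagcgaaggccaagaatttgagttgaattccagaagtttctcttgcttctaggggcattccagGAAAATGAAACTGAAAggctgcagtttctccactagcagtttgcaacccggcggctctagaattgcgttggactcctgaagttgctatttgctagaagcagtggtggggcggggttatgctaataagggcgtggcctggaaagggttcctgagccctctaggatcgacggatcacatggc
Stat2: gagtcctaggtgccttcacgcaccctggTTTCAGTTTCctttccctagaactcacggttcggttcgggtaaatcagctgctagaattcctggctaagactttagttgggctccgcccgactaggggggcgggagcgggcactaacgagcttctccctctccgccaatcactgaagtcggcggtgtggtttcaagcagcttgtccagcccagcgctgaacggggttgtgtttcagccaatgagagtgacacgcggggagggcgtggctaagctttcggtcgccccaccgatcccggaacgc
The Bst2 window held 2 overlapping matches, those of Rsad2 and Stat2 held 1 each on the other strand, and that of Irf7 held 0. A window was found for 18 of the 24 tested members, of which 8 held a match, against 1079 of 27025 genes (3.99%) in the table. The list was made of known interferon targets, so this count describes its make-up and says nothing of which factor acted at day 12.

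Matrix genes of the proteoglycan and elastic fibre classes were lower at day 12. Of 13 proteoglycans tested, 8 lay below both diestrus arrays (61.5%, against 15.7% of all genes) and 0 above, with a median of -0.30 that was -0.28 within replicates 2 and -0.32 within replicates 3. Biglycan, Bgn, which binds collagen fibrils and growth factors, stood at 12.19 and 12.31 in diestrus against 11.87 and 12.05 at day 12 (-0.29 ± 0.11, and -0.74 for its other probe set). Aspn, asporin, stood at 9.20 and 9.52 against 8.79 and 8.97 (-0.48 ± 0.14), and Prelp, which anchors basement membranes, at 10.54 and 10.62 against 10.26 and 10.30 (-0.30 ± 0.10). Mimecan, Ogn, stood at 10.46 and 10.61 against 10.28 and 10.13, and the matrix protein Ecm2 at 8.25 and 8.46 against 7.91 and 8.06 (-0.37 ± 0.12). Decorin itself, Dcn, overlapped (12.59 and 12.66 against 12.35 and 12.60), as did Lum and Fmod. Many of these genes were higher on replicate 3 of a state than on replicate 2, as the atrial genes were: the list averaged 0.02 and 0.27 above its mean in diestrus and -0.25 and -0.04 at day 12. The list median was negative within replicates 2 and within replicates 3, which for the 8 separated genes follows from their separation.

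In the elastic fibre list 10 of 15 lay below both diestrus arrays (66.7%) and 0 above, with a median of -0.21, -0.30 within replicates 2 and -0.21 within replicates 3. Lox, the enzyme that cross-links elastin and collagen, had the widest difference, at 5.53 and 6.95 in diestrus and 4.95 and 4.94 at day 12 (-1.29 ± 0.42). The diestrus arrays were further apart than the states, so the size for Lox rests on diestrus replicate 3. It ranged from -2.01 to -0.57 without 1 array or without the same replicate of both states. The day 12 mean of Lox, 4.95, lay under the filter value of 5.16, which it passed through diestrus. The related enzyme gene Loxl1 gave -0.21. The microfibril genes Mfap4 (8.23 and 8.13 against 7.35 and 7.78) and Mfap5 (8.97 and 9.43 against 8.58 and 8.70) gave -0.61 ± 0.16 and -0.56 ± 0.17. The fibulins Fbln1 (9.07 and 9.05 against 8.59 and 8.80) and Fbln2 (8.49 and 8.53 against 8.15 and 8.19) gave -0.37 and -0.34, with an SE of 0.11 and 0.10. Elastin itself, Eln, overlapped at 7.19 and 6.87 against 6.76 and 7.03, and so did Fbln5 and Emilin1.

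Fibroblast markers were lower with them: 9 of 16 lay below both diestrus arrays (56.2%) and 0 above, with a median of -0.19, -0.26 within replicates 2 and -0.14 within replicates 3. Some are matrix genes already counted (Mfap5, Fbln1, Dcn and Lum). Pdgfra, the growth factor receptor that marks resident fibroblasts, stood at 9.23 and 9.27 against 8.96 and 9.01 (-0.26 ± 0.10). Tcf21, a transcription factor of that lineage, stood at 7.49 and 7.61 against 7.06 and 7.22 (-0.41 ± 0.11), and Islr at 9.67 and 9.76 against 9.17 and 9.24 (-0.51 ± 0.10). All 3 genes kept the day 12 arrays below the diestrus arrays by more than the arrays of a state differed. The summed linear intensity of the 16 markers was 17119 and 18631 in diestrus and 14232 and 17095 at day 12. In whole tissue, fewer cells of a type and less RNA per cell cannot be told apart.

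**Figure D4:**
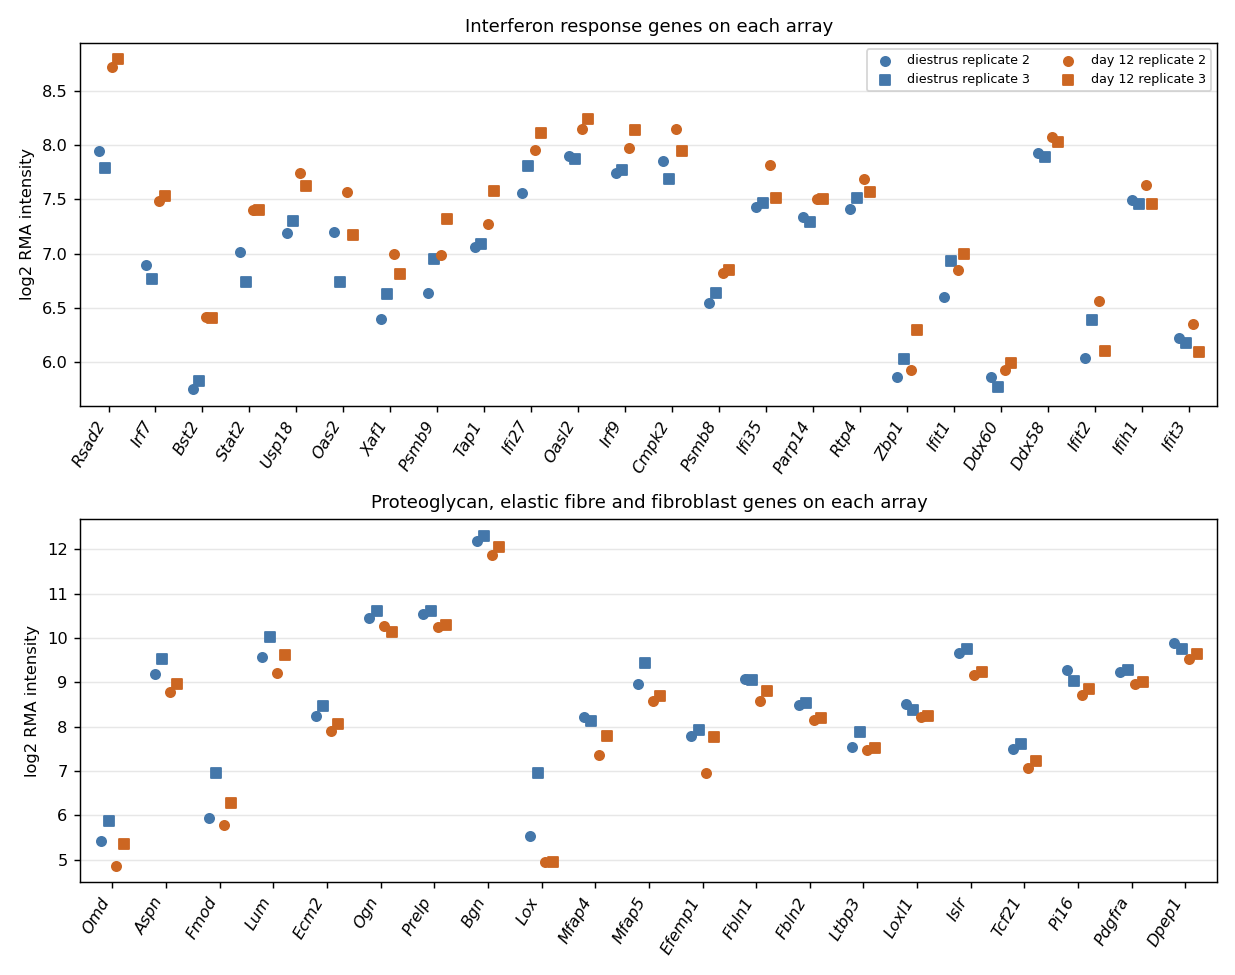
Log2 RMA intensity (y axis) of 24 interferon response genes and of 21 proteoglycan, elastic fibre and fibroblast genes (x axis, ordered by size of difference within each class), 1 point per array; blue is diestrus, orange day 12, circles replicate 2 and squares replicate 3. Rsad2, Irf7 and Bst2 are higher on both day 12 arrays, Aspn, Prelp and Islr are lower on both, and Lox is spread in diestrus (5.53 and 6.95).

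Collagens differed by less. Col1a1 stood at 8.05 and 8.27 against 8.06 and 8.07 and Col3a1 at 7.97 and 7.89 against 7.90 and 7.82, both overlapping, and the list of 13 had a median of -0.062, with 4 below (30.8%, against 15.7% of all genes) and 1 above, Col16a1 (0.18). The 2 of widest separation were Col14a1, a collagen on the surface of fibrils, at 7.52 and 7.85 against 6.83 and 7.21 (-0.66 ± 0.17), and Col8a1, a short-chain collagen of vessel walls, at 7.44 and 7.53 against 6.96 and 7.23 (-0.39 ± 0.13). Matricellular genes had 6 of 18 below (33.3%) and 0 above, with a median of -0.18 that was -0.013 without diestrus replicate 3, -0.079 without day 12 replicate 2 and -0.30 without day 12 replicate 3. Ccn2, a growth factor-binding protein that marks fibrotic signalling, stood at 8.62 and 8.03 against 7.07 and 7.57 (SE 0.24 for the difference), but its other probe set gave 0.18. The probe sets of Ccn2 disagree, so no direction is given for it. Smoc2 (9.14 and 8.93 against 8.46 and 8.55, -0.53 ± 0.12) and the cartilage intermediate layer gene Cilp (6.13 and 6.18 against 5.21 and 5.92, -0.59 ± 0.23) were lower, while Sparc, Postn and tenascin C overlapped. Basement membrane and integrin genes, with 3 of 22 above and 3 below, and matrix proteases, with 4 of 16 above and 4 below, had no common direction.

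Among signalling genes, 4 of 19 TGF-beta genes were below (21.1%, near the 15.7% of all genes) and 0 above. Their median of -0.15 was -0.0072 without day 12 replicate 2, -0.036 without diestrus replicate 3 and -0.28 without either of the others. The members below were the ligand Tgfb3 (8.58 and 8.71 against 8.22 and 8.47), Bmp6 (-0.37), the co-receptor Tgfbr3 (8.58 and 8.61 against 8.33 and 8.34) and the transducer Smad3 (7.51 and 7.34 against 7.28 and 7.14). Tgfb1 and Tgfb2 overlapped. Of the neuregulin, ErbB and ERK feedback genes, 7 of 19 were below (36.8%) and 1 above, with a median of -0.17, -0.16 within replicates 2 and -0.19 within replicates 3, and -0.11 without diestrus replicate 2. Neuregulin 1, Nrg1, which vessel cells release to act on heart muscle, stood at 7.24 and 6.98 in diestrus against 5.99 and 6.53 at day 12, which differ by -0.85 ± 0.20 that was -1.25 within replicates 2 and -0.44 within replicates 3. Nrg2 stood at 6.15 and 6.12 against 5.81 and 5.84 (-0.31 ± 0.10). The receptor genes did not follow: Erbb2 was 0.12 higher, and Erbb3 and Erbb4, the receptor of neuregulin in cardiomyocytes, overlapped. Among readouts of ERK signalling, Etv5 stood at 6.21 and 6.19 against 5.69 and 5.17 (-0.78 ± 0.18, but 0.09 for its other probe set) and Etv1 at 7.79 and 7.65 against 7.41 and 6.91 (-0.56, and -0.11 for its other probe set). The feedback inhibitors Spry1, Spred1 and Spred2 gave -0.24, -0.19 and -0.22, and Dusp6 overlapped.

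Vessel genes were mixed. Of 16 endothelial markers, 6 lay above (37.5%) and 1 below, with a median of 0.032. Btnl9, a capillary endothelial gene, stood at 7.36 and 7.07 against 8.47 and 8.05 (1.04 ± 0.17, 2.06-fold), and Ly6c1, of a family of closely related neighbouring genes, at 5.85 and 6.02 against 6.66 and 6.66 (0.72 ± 0.11). Aqp1, the water channel of capillaries, was lower (9.99 and 10.12 against 9.63 and 9.77, -0.35 ± 0.11), and Pecam1 and Cdh5, which mark all vessels, overlapped. Rbp7, a retinol-binding protein found in endothelium and fat, stood at 6.87 and 6.85 against 7.56 and 7.99 (0.92 ± 0.16), and 1 other of 15 retinoid genes, Rxra, did not overlap (-0.034). Of 20 vascular growth signals, 4 were above (Vegfa, Vegfb, Vegfc and Tie1) and 3 below (Fgf1, Flt4 and Hif1a). Vegfa stood at 10.13 and 9.60 against 10.27 and 10.14, so its difference of 0.34 ± 0.19 came mostly from diestrus replicate 3.

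Red cell genes were split. Slc4a1, the anion exchanger of the red cell membrane, stood at 6.07 and 6.07 in diestrus against 7.08 and 7.59 at day 12 (1.27 ± 0.18), and Car2, a carbonic anhydrase of red cells and other tissues, at 6.46 and 6.41 against 7.43 and 7.73 (1.14 ± 0.13, 2.21-fold). Bpgm, which makes the compound that loosens oxygen from haemoglobin, gave 0.47 ± 0.13. Ank1 was lower (-0.42 ± 0.15, other probe set 0.02), and Fech, Sptb, Tfrc and Hemgn overlapped, so that 3 of 8 tested members were above and 1 below. Epb42, Rhag and Kel were below the filter, between 3.70 and 4.91, and each was higher on both day 12 arrays, while Car1, also below it, was lower (4.28 and 3.94 against 3.78 and 3.78). Globin genes were not analysed here. The summed intensity of the 12 measured markers was 1840 and 1826 in diestrus and 1980 and 2093 at day 12. Tent5c, a poly(A) polymerase known from red cell and plasma cell development, stood at 6.42 and 6.58 against 7.18 and 7.59 (0.89 ± 0.16).

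Of the hormone-linked lists, glucocorticoid targets had 8 of 18 above (44.4%) and 1 below, with a median of 0.16, 0.26 within replicates 2 and 0.13 within replicates 3, and 0.30 without diestrus replicate 3. Zbtb16, a transcription factor, stood at 8.28 and 8.28 against 8.67 and 9.09 (0.60 ± 0.15), the iron-binding protein gene Lcn2 at 6.09 and 6.15 against 6.59 and 6.56 (0.45 ± 0.10) and the metallothionein gene Mt2 at 9.42 and 9.47 against 9.87 and 9.75 (0.36 ± 0.10). The phosphatase gene Dusp1, also a target, was lower (-0.34 ± 0.11), and Per1 and Tsc22d3 overlapped. Of the steroid and prolactin receptor genes, 2 of 17 were above and 3 below. The estrogen receptor gene Esr1 stood at 5.59 and 6.48 against 5.25 and 5.65 and overlapped (-0.59 ± 0.30), Esr2 gave 0.26 and Gper1 -0.17. The progesterone receptor gene Pgr lay below the filter, at 4.51 and 5.35 against 4.40 and 4.37, and Prlr was not analysed here. The STAT targets Socs2 (0.13) and Socs3 (-0.20) lay in opposite directions. Of 20 insulin and IGF genes, 2 were above and 5 below. Ide, the insulin-degrading enzyme, stood at 10.04 and 10.04 against 9.35 and 9.23, a difference of -0.76 ± 0.10 that is 1 of the 20 widest separations among lower genes. The others were small: Igfbp6 gave -0.35, Foxo1 -0.10 and Pik3r1 0.25. In the adrenergic and renin-angiotensin list, Agt, the precursor of angiotensin, was higher (0.74 ± 0.21), and Ace (-0.20), Agtr1a (-0.12), Nr3c2 (-0.12) and the endothelin gene Edn1 (7.19 and 7.03 against 6.58 and 6.85, -0.39 ± 0.13) were lower, 4 of 8 in all.

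Most genes of the contractile machinery and of pathological growth did not separate, nor did most of all genes tested, of which 37.3% separated. The natriuretic peptide genes overlapped, Nppa at 11.92 and 11.03 against 11.23 and 11.13 and Nppb at 11.35 and 10.42 against 10.96 and 11.00. The same held for the myosin heavy chain genes Myh6 (12.53 and 12.54 against 12.56 and 12.40) and Myh7 (6.98 and 6.41 against 6.32 and 6.97), the latter the fetal and slow form. Of 16 hypertrophy markers, 5 were above (31.2%) and 0 below. Their median of 0.057 turned with the pair, at -0.07 within replicates 2 (6 of 16 positive) and 0.10 within replicates 3 (13 of 16). Acta1, the skeletal actin that the heart re-expresses under load, stood at 8.52 and 9.03 against 9.73 and 9.43 (0.80 ± 0.20), and the stretch-responsive Ankrd2 at 5.48 and 5.76 against 6.04 and 5.92 (0.36 ± 0.13). Acta1 is also a skeletal muscle marker. Of the 5 tested members of that list 4 were above and 1, Pvalb, below, with a summed intensity of 672 and 834 in diestrus and 1199 and 1020 at day 12, of which Acta1 is the largest term, and Myh1, Myh4 and Mylpf lay between 2.74 and 4.53. Sarcomere genes had 6 of 21 above and 1 below, with a median of 0.012: titin, Ttn, the spring of the sarcomere, stood at 11.72 and 11.35 against 12.00 and 11.84 (0.38 ± 0.15), and Myoz2, Csrp3 and Actn2 each gave 0.12. Calcium handling had 5 of 16 above and 2 below, with a median of 0.048. The exchanger Slc8a1 (9.85 and 9.72 against 10.29 and 10.04, 0.39 ± 0.13) and the release channel Ryr2 (0.19) were higher, the pump gene Atp2a2 stood at 12.99 and 12.98 against 13.07 and 13.03, and S100a1, which enhances the pump and channel, was lower (-0.14). Potassium channels had 5 of 16 above and 0 below, with Kcnv2 and Kcnj5 both at 0.18.

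Genes of protein synthesis went different ways. Of 33 mitochondrial ribosomal proteins, 13 lay above (39.4%) and 1 below, with a median of 0.11 (0.048 without day 12 replicate 2), led by Mrps14 (5.27 and 5.30 against 5.59 and 5.78, 0.40 ± 0.11) and Mrpl24 (8.70 and 8.71 against 9.03 and 9.03, 0.32 ± 0.10). Of 24 cytosolic ribosomal proteins, 8 lay below (33.3%) and 1 above, with a median of -0.075 that was -0.01 within replicates 2 and -0.15 within replicates 3, and -0.003 without diestrus replicate 3. Rps16 gave -0.47 ± 0.10 (5.95 and 5.85 against 5.46 and 5.41), Rpl32 -0.40 and Rps18 -0.32. Ribosomal protein genes have many processed copies, and how the probe sets treat these was not analysed here. Proteasome subunits had 10 of 25 above (40.0%) and 2 below, with a median of 0.07 (Psma1, 0.34 ± 0.12, and Psmb7, 0.21 ± 0.10). Heat shock genes had 7 of 16 above (43.8%) and 3 below, with the mitochondrial chaperone Hspd1 at 10.54 and 10.51 against 10.81 and 10.80 (0.28 ± 0.10).

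Of the classes with at least 5 tested genes, the widest shift was that of small nucleolar RNAs (snoRNAs), which guide chemical changes of ribosomal RNA and are mostly cut from introns of other genes. This and the other classes of small RNA gene were added after their values were seen, so the counts are a description. Of 50 snoRNA genes tested, 33 lay below both diestrus arrays (66.0%, against 15.7% of all genes) and 4 above, with a median of -0.65, -0.72 within replicates 2 and -0.66 within replicates 3. It was -0.35 without day 12 replicate 2. Snord99, the gene of smallest p among all tested, stood at 8.55 and 9.10 in diestrus against 6.94 and 6.89 at day 12 (-1.91 ± 0.18). Snord49b stood at 9.42 and 10.03 against 8.10 and 8.27, Snord35a at 9.10 and 9.65 against 7.83 and 8.04 and Snora33 at 10.14 and 10.48 against 9.07 and 8.90. The exceptions were Snord8 (0.65 ± 0.14), Snord88c (0.30), Snora61 (0.11) and Snora47 (0.10). As with the matrix genes, snoRNA values were higher on replicate 3 than on replicate 2 within each state: the list averaged 0.16 and 0.52 in diestrus and -0.51 and -0.16 at day 12, relative to its mean.

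The genes that contain the snoRNAs differed less. For 32 of the 50, exactly 1 tested gene contains the snoRNA by the reference table, which gave 30 different containing genes. Their median difference was -0.04, from -0.40 to 0.46, with 7 below and 1 above both diestrus arrays. Snord71 gave -1.25 while Ap1g1, which contains it, gave 0.11; Snora15 gave -1.74 against 0.03 for Cct6a; and Snord82 gave -1.33 against -0.16 for Ncl, the nucleolin gene. Some small RNAs that are not cut from introns were lower too: Rny1 (6.77 and 7.73 against 5.78 and 5.53) and Rny3 (-1.58 ± 0.33), which code for Y RNAs, and Vaultrc5 (7.68 and 8.11 against 6.25 and 6.69), for a vault RNA. So was Rpph1, the RNA of the tRNA-cutting enzyme RNase P, at 11.37 and 11.70 against 10.59 and 11.06. Others did not separate: Rn7sk, a longer RNA polymerase III transcript, stood at 13.02 and 13.04 against 13.06 and 13.01, and Scarna17 overlapped. The class of 13 other small structural RNA genes held Rpph1 and also guide RNAs like the snoRNAs, such as Snord73b and Scarna6. Of these 13 genes, 6 lay below both diestrus arrays (46.2%, against 15.7% of all genes) and 1 above. The median of this class, -0.41, was -0.19 within replicates 2, -0.62 within replicates 3 and -0.084 without diestrus replicate 3. MicroRNA genes had 23 of 104 above (22.1%, near the 21.7% of all genes) and 7 below (6.7%). Their median of 0.091 came mostly from replicates 3, with 0.01 within replicates 2 and 0.20 within replicates 3. How much small RNA each preparation kept was not given in the sources used here, and its part in these values was not tested.

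**Figure D5:**
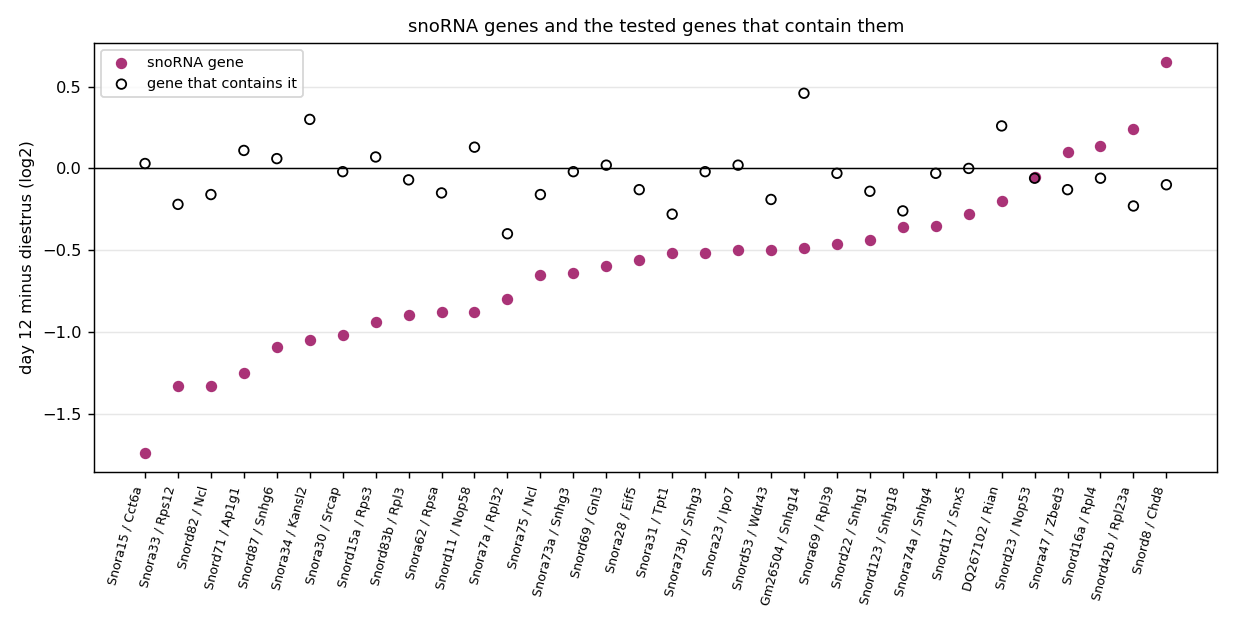
Day 12 minus diestrus difference on the log2 scale (y axis) of 32 snoRNA genes (filled) and of the tested gene that contains each (open), in order of the snoRNA difference (x axis). The snoRNA points fall to -1.74 at Snora15 while the containing genes stay between -0.40 and 0.46.

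Several named genes whose probe sets were lower at day 12 also hold small RNAs. Ptcd3, a mitochondrial translation factor whose gene contains Snord94, stood at 10.36 and 10.79 against 9.51 and 9.59 (-1.03 ± 0.16), but its other probe set gave -0.03. Ppan, a ribosome assembly gene that contains snoRNAs by the same table, stood at 7.32 and 7.83 against 6.50 and 6.65 and gave -0.05 for its other probe set. Ep400, a chromatin remodeller that also contains several small RNA genes, stood at 8.62 and 9.29 against 7.63 and 7.71 (-1.28 ± 0.22), with -0.04 for its other probe set. For these 3 genes the probe sets disagree, so no direction is given. By the same table Nrg1 and Csf2rb2 also overlap a small RNA gene, Gm22140 and Mir7676-1, and had no other probe set to compare.

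Among immune genes, 2 macrophage-linked genes, named for their wide gap between the states, were lower on both day 12 arrays. Retnla, a secreted product of alternatively activated macrophages, stood at 7.79 and 7.76 in diestrus against 5.96 and 6.87 at day 12 (-1.36 ± 0.28), and Vsig4, a complement receptor of resident macrophages, at 7.42 and 7.45 against 6.43 and 6.66 (-0.89 ± 0.12). The transcription factor Irf4 (5.49 and 5.54 against 4.94 and 4.99, -0.54 ± 0.10) and the cytokine receptor gene Csf2rb2 (5.87 and 5.87 against 5.13 and 5.27), which has a near-identical neighbour, were lower with them. Irf4 had a day 12 mean of 4.97, under the filter value of 5.16, and passed the filter through its diestrus values. Neither Retnla nor Vsig4 passed over all genes in limma (adjusted p 0.513 and 0.257). The day 12 arrays of Retnla were further apart than the nearest arrays of the states, which were 0.89 apart. At day 19 the Retnla arrays stood at 7.91 and 4.63, on both sides of diestrus. The macrophage list itself had no common direction: 8 of 17 differences were positive, with 5 above both diestrus arrays (29.4%, against 21.7% of all genes; Adgre1, Mrc1, F13a1, Mertk and Cd163, at 0.099 to 0.30) and 1 below, Timd4. Chemokines had 2 of 14 above and 5 below (35.7%), including Ccl9 (-0.21), Ccl24 (-0.29) and Ccl11 (-0.24). Of the complement and acute phase genes 3 of 12 were above and 2 below, with Serpina3n at 0.52 and Serping1 at -0.29.

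The remaining genes of widest separation belong to no list. Lgals4, galectin-4, a sugar-binding protein best known from gut epithelium, stood at 7.43 and 7.17 against 8.46 and 8.51 (1.19 ± 0.12, 2.28-fold). Apol11b, an apolipoprotein L gene, had the largest difference among the higher genes but also a wide spread, at 3.87 and 4.70 against 5.85 and 6.97 (2.13 ± 0.42). ND6, a mitochondrially encoded subunit of complex I that overlaps ND5 on the other strand, stood at 6.71 and 6.96 against 9.16 and 7.73 (1.61 ± 0.43), and replicate 2 carried most of it. The peptide transporter Slc15a2 (4.87 and 5.47 against 6.14 and 6.26), Abhd18, the glutamate carrier Slc25a22 (7.42 and 7.41 against 7.96 and 7.98) and Gsdmcl2, of a family of near-identical gasdermins (4.76 and 5.12 against 5.93 and 5.70), gave 1.03, 0.72, 0.55 and 0.88. Apol11b and Gsdmcl2 had diestrus means of 4.28 and 4.94, under the filter value of 5.16, and passed it through their day 12 values. Among the lower genes were Scgb1c1, a secretoglobin (10.18 and 10.07 against 9.60 and 9.38), Rnd3, which loosens the actin cytoskeleton (7.37 and 7.29 against 6.79 and 6.88), the calcium-binding protein gene Necab1 (6.76 and 6.86 against 6.31 and 6.35), Zfp385a (7.29 and 7.23 against 6.77 and 6.83) and the class I gene H2-Q10 (6.38 and 6.39 against 5.94 and 5.96), which has near-identical relatives. Their differences were -0.63, -0.49, -0.48, -0.46 and -0.44. Cdh4, a cadherin, gave -0.52, and its other probe set 0.38. Other genes overlap some named genes by the reference table, among them Ide (Rpl10-ps6), Scgb1c1 (C330022C24Rik), Slc15a2 (Gm8425) and Rbp7 (Trmt112-ps2). Which of the overlapping genes their probe sets read was not tested.

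The arrays of the later states place these genes in time. They are compared with the same diestrus arrays, so the values are set side by side and are not separate evidence. Pdk4 stood at 11.30 and 11.33 at day 19, close to day 12, and at 10.23 and 10.80 post-partum, on both sides of diestrus. Angptl4 stood at 6.49 and 6.20 at day 19 and at 5.54 and 5.56 post-partum. The PPAR-responsive list as a whole had a median over the diestrus mean of 0.29 and 0.33 on the day 12 arrays, 0.16 and -0.07 at day 19 and -0.20 and -0.04 post-partum, and Ucp3 itself stood at 6.96 and 6.71 at day 19. The interferon list had medians of 0.25 and 0.28 at day 12, 0.03 and 2.18 at day 19 and -0.02 and 0.22 post-partum, so day 19 replicate 2 stood far above every other array. Proteoglycans gave -0.38 and -0.20 at day 12, -0.15 and -0.69 at day 19 and -0.04 and -0.10 post-partum. Nrg1, low at day 12, stood at 7.25 and 7.21 at day 19, at diestrus levels. The brighter probe set of Ccn2, whose probe sets disagree at day 12, stood at 8.76 and 8.36 at day 19. Lgals4 stood at 7.49 and 7.34 at day 19, also near diestrus. Day 19 replicate 1 carried strong atrial signal, with Myl7 at 11.76 and Sln at 10.62. Ide was low in both later states, at 9.26 and 9.20 at day 19 and at 9.12 and 8.97 post-partum. The snoRNA list gave -0.90 and -0.35 at day 12, -0.42 and -0.52 at day 19 and -0.08 and -0.10 post-partum.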

How the data were processed

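RMA log2 values per probe set were deposited by the authors, computed in Affymetrix Expression Console according to the submitters' processing notes. Software versions, array library and genome build: not given in the sources used here. RMA equalises the arrays, so a shift shared by most genes is removed. Of 34365 probe sets, 25335 were listed in the platform annotation, 23521 with 1 symbol and 1814 with several (not named here), and 9030 were unlisted. Entrez identifiers of 23328 matched RefSeq's gene table (GRCm38.p6), which gave symbols and containing genes. The brightest probe set over the 8 arrays stood for a gene (1082 genes had several), which gave 22180 genes, of which 13096 had a mean over the 4 arrays of at least 5.16, the median of all values.

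The 4 arrays of day 12 and diestrus were fitted with limma 3.58.1 in R 4.3.3 (2 residual and 3.99 prior degrees of freedom), two-sided, with Benjamini-Hochberg adjustment over all genes tested. Precision is limited by the small number of arrays. The fit was tested on simulated data. A gene was called separated where both arrays of a state lay beyond both of the other. The 55 gene lists, the comparison and its rule were chosen with earlier results of these data known, and lists are described by counts and medians with no test. Of the list entries, 93 were not measured here.

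Named genes are the 20 with the widest gap between the nearest arrays in each direction (without predicted genes, numbered small RNA genes and olfactory, vomeronasal and trace amine receptor genes), up to 4 members of each list by the same gap, and Nppa, Nppb, Myh6, Myh7, Acta1, Atp2a2, Col1a1, Col3a1, Esr1, Pgr, Prlr and Vegfa. Y RNA and vault RNA genes were left out of the first part, and other list members and the small RNA classes added, after their values were seen. Alternatives were the 8-array fit, a replicate block, a trended and robust variance, 3 other filters, averaged probe sets, 2 other scalings and each array left out. After seeing the data, replicate 2 or 3 of both states was also left out. Promoter windows come from RefSeq.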

Additional observations from a re-analysis of the deposited data

How the results depend on the processing

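In limma, 0 genes passed under 10 of the 13 alternatives. A trended and robust variance gave 9, among them Lgals4, Pdk4, Rsad2, Car2 and Ide, and leaving out 1 array at a time gave 0 to 18, the 18 without diestrus replicate 2. With a replicate block, 45 passed (16 higher, 29 lower). Day 12 and diestrus share replicate numbers, whose deviations correlated across genes (r = 0.245). There are only 2 such pairs, and what samples of the same number share is not stated in the labels and was not tested. Genes with an unadjusted p under 0.05 numbered 296 when all 8 arrays were fitted, below the 655 expected by chance. With no filter, 4317 genes were higher and 3667 lower on both day 12 arrays. Leaving out 1 array gave 4659 to 5334 higher and 3813 to 4112 lower, since separation is then asked of fewer arrays. Of 57 lists with at least 5 tested members, small RNA classes included, 30 kept the sign of their median in every setting. None of the 40 genes of widest gap changed sign, and 18 passed in some alternative. Leaving out 1 array gave -0.74 to 0.15 for Nppa, -0.37 to 0.56 for Nppb, -0.14 to 0.018 for Myh6, -0.37 to 0.27 for Myh7 and -0.20 to 0.012 for Col1a1. Without replicate 2 of both states, Nppa gave 0.095 and Myh7 0.56; without replicate 3 of both, Nppb gave -0.39, Myh6 0.022 and Col1a1 0.009. Quantile normalization turned Myh6 to 0.034 and Pln to 0.052. The mean of all probe sets turned Pdk1 to -0.087, Pgam1 to 0.096, Cox7b to 0.025, Kcna4 to -0.11 and Itgav to 0.045. The cause was not tested. The small number of arrays limits all of these values.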
